A study of Caenorhabditis elegans with 2 samples.

Results

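The DNAJ and heat shock protein genes of Caenorhabditis elegans were examined in a chromatin immunoprecipitation and sequencing (ChIP-seq) experiment on F23B12.7. The members were all protein-coding genes whose name starts with dnj- or hsp- in the Ensembl annotation of the assembly WBcel235. There were 51 such genes among 19973 on the 6 nuclear chromosomes, 29 named dnj- and 22 named hsp-. By family and place of action, the hsp genes were 13 small heat shock proteins, 3 cytosolic chaperones (hsp-1, hsp-110 and hsp-90), 3 mitochondrial chaperones (hsp-6, hsp-60 and hsp-75), 2 chaperones of the endoplasmic reticulum (hsp-3 and hsp-4) and the inducible hsp-70. Ensembl gives the name hsp-16.1 to 2 genes and hsp-16.48 to 2 genes, and the RefSeq symbols hsp-16.11 and hsp-16.49 are used here for the second copy of each.

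The samples were whole young adult hermaphrodites of strain OP429, whose genotype is unc-119(tm4063) III; wgIs429, and which stably expresses F23B12.7 with GFP and FLAG at its C-terminus. There was 1 group with 2 biological replicates, precipitated with an antibody against GFP, and no other condition. The sources used here do not give the age in hours, the number of animals or the promoter that drives the transgene. Whole animals mix all tissues, so a peak does not show in which cells the DNA was recovered, and the labels name no heat shock.

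Molecular chaperones bind unfolded proteins and help them to fold. HSP70 proteins do so in cycles of ATP hydrolysis, and J-domain proteins, named DNAJ, bring them their clients and start hydrolysis. Nucleotide exchange factors such as HSP110 end the cycle, while HSP90 acts later on signalling proteins, and small heat shock proteins hold unfolded proteins without ATP. Some of these genes are used in every cell at all times. Others, such as hsp-70 and the hsp-16 genes, are known for a strong response to heat through the transcription factor HSF-1, which binds heat shock elements made of inverted repeats of GAA.

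A gene was counted as having a peak when a peak summit lay within 500 bp of its annotated 5′ end. The main set, called IDR peaks, was the authors' list thresholded by the irreproducible discovery rate (IDR), a measure of how alike peaks rank in replicates. It held 1707 peaks, 1684 of them nuclear, and was contained in a pooled list of 30000 peaks and background regions. Each of the 11 members with an IDR peak had the same rank in both lists, from 149 to 1519. At least to rank 1519, the IDR peaks were therefore the strongest peaks of the pooled list. A peak in the set need not rank alike in the 2 replicates. Signal is the authors' own value for each peak. Its scale need not be equal across lists, and replicates are therefore set side by side by rank. Depth is unknown, since the lists hold no read totals. With 1 group, no conditions were compared and no test was made, so counts of members stand beside the same counts over all protein-coding genes.

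The letters around the summits of 6 IDR peaks at members are shown first, because they hold the 5 strongest peaks at members and the elements at hsp-110, dnj-19, dnj-13 and hsp-6 named further on. They are read 5′ to 3′ on the coding strand of the member, in ce11, with the summit at the middle base. Capitals mark the heat shock motifs GAANNTTC and TTCNNGAA and the motif CCAAT, on either strand. None of these windows holds an exon of a coding gene.
dnj-9 (chrII:4851796-4851896, plus strand): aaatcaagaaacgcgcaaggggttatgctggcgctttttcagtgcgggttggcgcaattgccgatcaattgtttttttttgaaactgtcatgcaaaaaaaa
dnj-11 (chrIV:6585603-6585703, plus strand): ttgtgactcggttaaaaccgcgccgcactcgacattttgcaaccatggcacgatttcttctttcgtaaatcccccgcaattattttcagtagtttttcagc
dnj-13 (chrII:11545369-11545469, plus strand): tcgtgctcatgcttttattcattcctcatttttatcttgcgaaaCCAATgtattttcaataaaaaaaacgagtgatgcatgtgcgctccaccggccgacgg
hsp-6 (chrV:4827119-4827219, minus strand): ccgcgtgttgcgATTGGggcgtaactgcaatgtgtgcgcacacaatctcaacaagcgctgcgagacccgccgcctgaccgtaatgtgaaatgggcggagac
hsp-110 (chrIII:8447091-8447191, minus strand): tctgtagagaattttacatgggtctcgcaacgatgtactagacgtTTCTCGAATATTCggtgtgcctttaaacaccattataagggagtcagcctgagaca
dnj-19 (chrV:5505135-5505235, minus strand): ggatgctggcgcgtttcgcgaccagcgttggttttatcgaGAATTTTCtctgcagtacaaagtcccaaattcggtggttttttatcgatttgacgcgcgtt

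IDR peaks near the start were found at 9 DNAJ genes, at the cytosolic hsp-110 and at the mitochondrial hsp-6, and at none of the 13 small heat shock protein genes that the name rule kept. Of the 51 members, 11 had an IDR peak (21.6%, 95% exact interval 11.3 to 35.3%), against 6.72% of all protein-coding genes. The dnj genes accounted for 9 of the 11, out of 29 (31.0%, interval 15.3 to 50.8%). The hsp genes had 2 of 22 (9.09%, interval 1.12 to 29.2%), at hsp-6 and hsp-110. For the small heat shock protein genes the interval of 0 of 13 reaches 24.7%, above the 6.72% of all genes, so it does not show fewer peaks than elsewhere. Within 250 bp of the start the count was 6 of 51 (11.8%, against 4.21% of all genes), and with each peak given to its nearest start alone it was 5 of 51 (9.80%, against 5.02%). The intervals are Clopper-Pearson intervals, which take each gene as independent of the others and hold counting error alone.

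**Figure D1:**
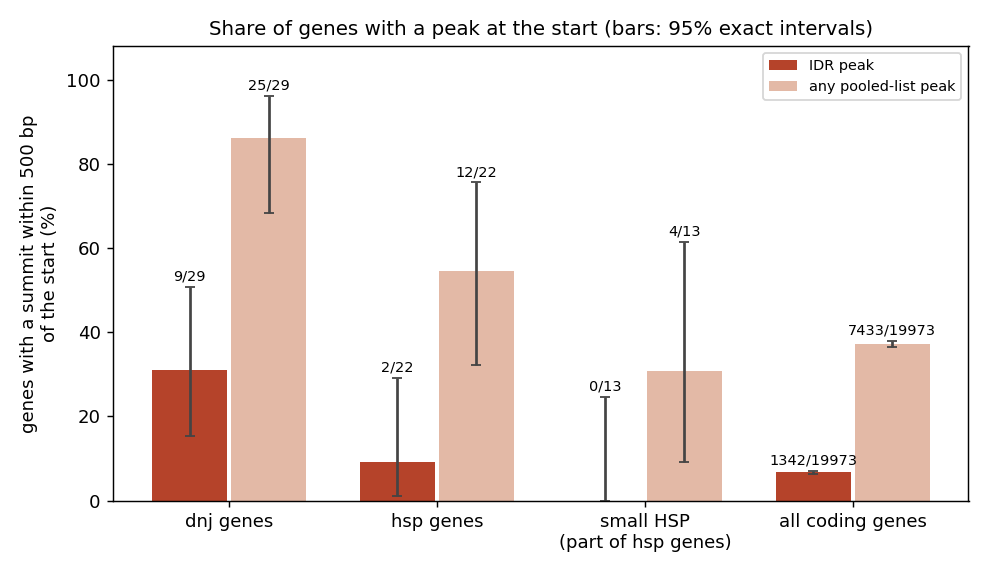
Share of genes (%) with a peak summit within 500 bp of the start, for IDR peaks (dark bars) and for any peak of the pooled list (light bars), in dnj genes, hsp genes, small heat shock protein genes and all protein-coding genes. Error bars are 95% exact binomial intervals and labels give counts. Of these 4 sets the dnj genes stand highest, with 9 of 29 and 25 of 29, and the small heat shock protein genes have 0 of 13 and 4 of 13.

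Without the IDR threshold, entries of the pooled list were near most dnj genes. That list also holds background regions, so what is called a pooled-list peak here need not be a peak. Any peak of the pooled list was in reach of 37 of the 51 members (72.5%), against 37.2% of all protein-coding genes. This was so for 25 of the 29 dnj genes (86.2%), for 12 of the 22 hsp genes (54.5%) and for 4 of the 13 small heat shock protein genes (30.8%). Among genes with a pooled-list peak, 11 of 37 members had an IDR peak (29.7%), and 1342 of 7433 protein-coding genes did (18.1%). For the dnj genes it was 9 of 25.

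Of the J-domain protein genes whose products work with cytosolic HSP70, dnj-12, dnj-13 and dnj-19 had IDR peaks. These genes were grouped after the values were seen, and dnj-1, which RefSeq names as a counterpart of DNAJB1, had none and a pooled signal of 12.4. The strongest peak was at dnj-13, a type B J-protein that acts with HSP-1 and HSP-110 to dissolve protein aggregates, with a signal of 86.4 and a summit upstream of the start (position −282 bp). Its signal was 47.0 in replicate 1 (rank 325) and 34.8 in replicate 2 (rank 257), and no other coding gene started in reach. The type A J-protein genes had lower signals, 53.1 at dnj-19 (position −328) and 50.9 at dnj-12 (position −99). The dnj-19 peak had 25.3 in replicate 1 (rank 1598) and 26.0 in replicate 2 (rank 571). The dnj-12 peak ranked 1026 and 1169, so type A genes were lower than dnj-13 in both replicates. In replicate 2 the strongest summit near dnj-12 was at 87 bp inside the gene rather than upstream.

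The highest signal of all members was at dnj-9, a gene that RefSeq describes only as encoding a J-domain protein, with 97.1 (position −210). Its peak ranked 149 in the pooled list, and had 58.6 in replicate 1 (rank 158) and 36.7 in replicate 2 (rank 222). The peak at dnj-11, named in RefSeq as the counterpart of DNAJC2, a J-protein that works at the ribosome, had a signal of 92.1 (position −218). It had 62.8 in replicate 1 (rank 126), the highest of the 51 members there, and 26.8 in replicate 2 (rank 509). Both genes stood above the median of 53.9 for the strongest IDR peak of all protein-coding genes that have one.

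The remaining DNAJ genes with an IDR peak included 2 with known roles at vesicles. The peak at dnj-14, which encodes the cysteine string protein of synaptic vesicles, had a signal of 71.3 (position −314) and ranked 440 in replicate 1 and 483 in replicate 2. At dnj-25, the gene of auxilin, which frees clathrin from vesicles, the signal was 42.7 (position −111). That peak ranked 2933 in replicate 1 and 964 in replicate 2. The signals at dnj-22 and dnj-28, both described in RefSeq as J-domain proteins, were 53.1 (position −123) and 40.6 (position −337). The dnj-28 peak ranked 2233 and 2727, outside the 1707 strongest peaks of either replicate, and was the weakest of the 11 by signal.

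Small groups of DNAJ genes placed here in the endoplasmic reticulum or in mitochondria held no IDR peak. These roles too were assigned after the values were seen, and the groups need not hold every DNAJ gene that acts in these places. Several DNAJ genes with an IDR peak, dnj-9 and dnj-28 among them, were not assigned to any place. The groups therefore do not show a difference between places. The endoplasmic reticulum group held dnj-7, dnj-20, dnj-27 and dnj-29, which encode counterparts of P58IPK, ERdj3, ERdj5 and SEC63, and 0 of 4 had an IDR peak, a number too small to set against the 6.72% of all genes. No peak of the pooled list was in reach of dnj-7 or dnj-27, and dnj-20 had a pooled signal of 26.4. The mitochondrial group held dnj-10, a counterpart of bacterial DnaJ, with a pooled signal of 20.1, and dnj-21, named TIM14 in RefSeq, a subunit of the import motor, with 8.04.

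The gene dnj-29 lay just below the threshold. Its pooled signal was 37.9 and its pooled rank 1725, where the lowest IDR peak had a signal of 37.99. The replicates differed there, with a rank of 10068 in replicate 1 and 601 in replicate 2. The weakest member inside the set was dnj-28, at 40.6. After dnj-29 and hsp-1, the next pooled signals among members without an IDR peak were those of dnj-20, dnj-8 (24.2) and dnj-4 (23.7).

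Of the other DNAJ genes, dnj-1, dnj-2, dnj-3, dnj-15, dnj-16, dnj-17, dnj-18, dnj-23, dnj-26 and dnj-30 had a pooled-list peak only, and dnj-5 and dnj-24 had none. Over all 16 dnj genes with a pooled-list peak only, the signal ran from 8.04 to 37.9 with a median of 16.5. The median of the strongest pooled-list peak over all protein-coding genes with one, those with an IDR peak included, was 17.5. For dnj-16 the ranks were 7095 in replicate 1 and 893 in replicate 2, and for dnj-17 they were 4142 and 29936, close to the end of that list.

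**Figure D2:**
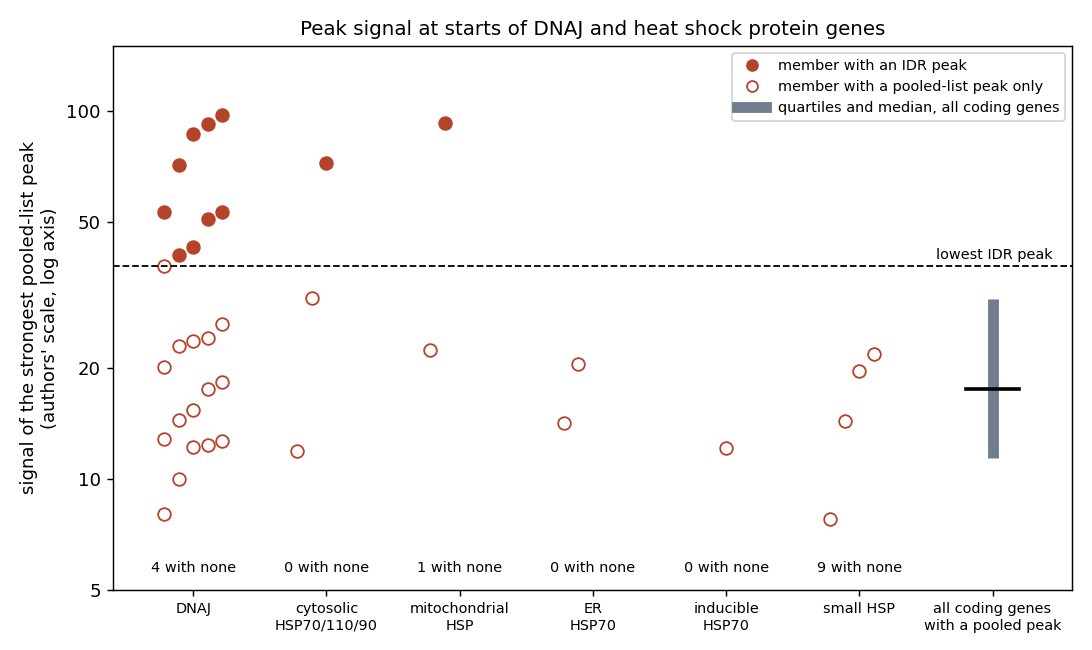
Signal of the strongest pooled-list peak within 500 bp of each member's start (authors' scale, log axis), by subgroup, with filled points for members with an IDR peak and open points for the others. The grey bar and black line give the quartiles and median over all protein-coding genes with a pooled-list peak, the dashed line is the lowest IDR signal (37.99), and the number of members with no peak stands at the bottom. The filled points are 9 DNAJ genes, hsp-110 and hsp-6.

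Among the cytosolic chaperones, hsp-110 had the only IDR peak within reach. This gene encodes the exchange factor of HSP70, and its peak had a signal of 72.3 (position −232). The replicates gave 55.9 (rank 184) and 34.3 (rank 267), both high in their lists. The summit in replicate 2 was closer to the start, at −10. The gene hsp-1, which encodes the constitutive HSP70, had a pooled signal of 31.0 at −433 and no IDR peak within 500 bp, although it was among the 1707 strongest peaks of both replicates (ranks 910 and 1398). The summits of the replicates there were apart, at −424 in replicate 1 and −287 in replicate 2. The nearest IDR peak to hsp-1, with a signal of 72.9, had its summit 58 bp beyond the 3′ end of the gene.

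At hsp-90, the gene of the cytosolic HSP90, the pooled-list peak in reach had a signal of 11.9 (position 150). An IDR peak of signal 57.0 lay further inside the gene, at position 857, in an intron and at −290 from the start of C47E8.4. A start of another annotated hsp-90 transcript was within 500 bp of it. The heat-inducible hsp-70 had a weak pooled-list peak, with a signal of 12.1 and ranks of 16969 in replicate 1 and 24541 in replicate 2.

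The mitochondrial chaperones differed among themselves. The gene of mitochondrial HSP70, hsp-6, known as a marker of the mitochondrial unfolded protein response, had a signal of 92.4 and rank 181. The signal was 53.4 in replicate 1 (rank 218) and 32.5 in replicate 2 (rank 315), so the peak was high in both. Its summit was the farthest from a start among the 11, at −409. The gene of the chaperonin HSP60, hsp-60, missed the reach by a small distance, with an IDR peak of signal 95.7 at −648. That summit was at −165 from the start of the neighbour Y22D7AL.10, and the pooled-list peak in reach of hsp-60 had a signal of 22.4. The HSP90 family gene hsp-75 had no pooled-list peak in reach.

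The HSP70 genes of the endoplasmic reticulum, hsp-3 and hsp-4, both had pooled-list peaks only. Signals were 14.2 at hsp-3 (position −18) and 20.5 at hsp-4 (position 144), the BiP gene that is known to respond to unfolded proteins there. Their ranks were 4813 and 4399 in replicate 1, and 10866 and 6963 in replicate 2. Neither was among the 1707 strongest peaks of a replicate.

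Of the small heat shock protein genes, hsp-16.2, hsp-25, hsp-43 and hsp-12.6 had a pooled-list peak in reach, with signals from 7.79 to 21.9. The highest was at hsp-16.2, where the summit lay inside the gene at position 330 and ranked 1406 in replicate 2. In replicate 1 the strongest summit in reach was between hsp-16.2 and hsp-16.41, at −179 from the start of hsp-16.2, with rank 19960. No pooled-list peak was in reach of hsp-12.1, hsp-12.2, hsp-12.3, hsp-17, hsp-16.1, hsp-16.11, hsp-16.41, hsp-16.48 or hsp-16.49. An IDR peak of signal 46.7 lay 14 bp beyond the 3′ end of hsp-12.3, at 730 bp from its start and within 250 bp of the snRNA gene F38E11.11.

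Some of these genes share their sequence with a copy. For hsp-16.1, hsp-16.11, hsp-16.48 and hsp-16.49, 100% of the 36-mers within 500 bp of the start were found elsewhere in the nuclear genome, and these genes are known to lie in an inverted duplication. How the authors treated reads with several matches is not given in the sources used here, and its part in the absence of peaks was not tested. The value was 1.45% for hsp-16.2 and hsp-16.41 and 21.3% for dnj-28, and at most 4.24% for any other member.

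Most members with an IDR peak shared it with a divergent neighbour, so the peak cannot be given to the member alone. The members' shares given next rest on 11 peaks, and no interval was computed for them. At 8 of the 11 the summit was also within 500 bp of the start of another coding gene, in each case a divergent neighbour (72.7%), against 651 of the 1342 protein-coding genes with an IDR peak (48.5%). The neighbour's start was nearer to the summit in 6 of the 11, whereas another start was nearer for 340 of the 1342 genes (25.3%). The 6 were hsp-6 with C37H5.5, hsp-110 with rpn-3, dnj-14 with glit-1, dnj-19 with nhr-47, dnj-22 with natc-1 and dnj-28 with supr-1. The summit at hsp-110 was nearly central, at −232 from hsp-110 and −212 from rpn-3, which encodes a proteasome subunit. For hsp-6 it was at −409 from hsp-6 and −191 from C37H5.5, and for dnj-19 at −328 from dnj-19 and −68 from nhr-47, a nuclear hormone receptor gene.

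The member was the nearer gene at dnj-11, which shared its peak with F38A5.2 (−218 and −253 bp), and at dnj-12, which shared with mtx-1, a gene of a mitochondrial outer membrane protein (−99 and −393 bp). The peaks at dnj-9, dnj-13 and dnj-25 had no other coding start in reach. All 11 summits were upstream of the member, with a median of −232 bp, where 92.0% of protein-coding genes with an IDR peak had an upstream summit and the median was −192 bp. Each of the 11 called peaks was 356 bp wide, and only those at dnj-12, dnj-22 and dnj-25 covered the member's start. No tRNA, snoRNA or snRNA gene lay within 250 bp of any of the 11 summits.

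**Figure D3:**
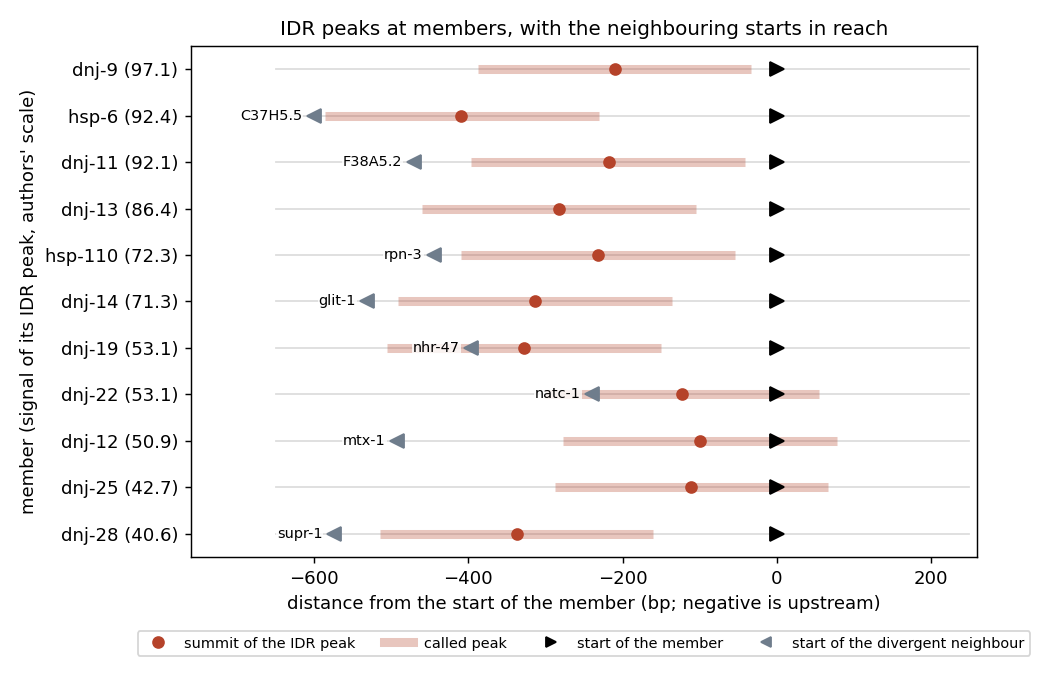
Position of the 11 IDR peaks at members relative to the member's start (bp, negative is upstream), ordered by signal, which stands in parentheses. Red bars are the called peaks, red dots their summits, black arrows the member's start and grey arrows the start of a divergent neighbour within reach of the summit. At 8 members a neighbour shares the peak, and at 6 of these its start is nearer to the summit.

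An operon in this species is transcribed from the promoter of its first gene, and 13 of the 51 members started within 1000 bp of the end of a gene before them on the same strand. Of these 13, dnj-9 had an IDR peak, against 304 of 6296 protein-coding genes placed in the same way (4.83%). Of the other 38 members 10 had one (26.3%), against 7.59% of the other protein-coding genes. The remaining 12 of the 13 were dnj-2, dnj-3, dnj-4, dnj-8, dnj-10, dnj-15, dnj-18, dnj-21, dnj-30, hsp-4, hsp-12.3 and hsp-75.

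The strongest members were high in both replicates. Of the 11 members with an IDR peak, 9 were among the 1707 strongest peaks of replicate 1, 10 among those of replicate 2 and 9 among both. The IDR peaks at the 11 are also among the strongest of the pooled list, which was made from the same replicates. These counts of the 11 therefore follow in part from that choice and are no separate support. Over all 51 members, 10 had such a peak in replicate 1 (19.6%, against 6.42% of protein-coding genes) and 14 in replicate 2 (27.5%, against 6.13%). The members added by replicate 2 to the IDR members were dnj-16, dnj-29, hsp-1 and hsp-16.2, and replicate 1 added hsp-1. Over the 32 members with a peak in both lists, ranks had a Spearman correlation of 0.68, a description over genes of the same pair of libraries, and over 5124 protein-coding genes it was 0.60.

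**Figure D4:**
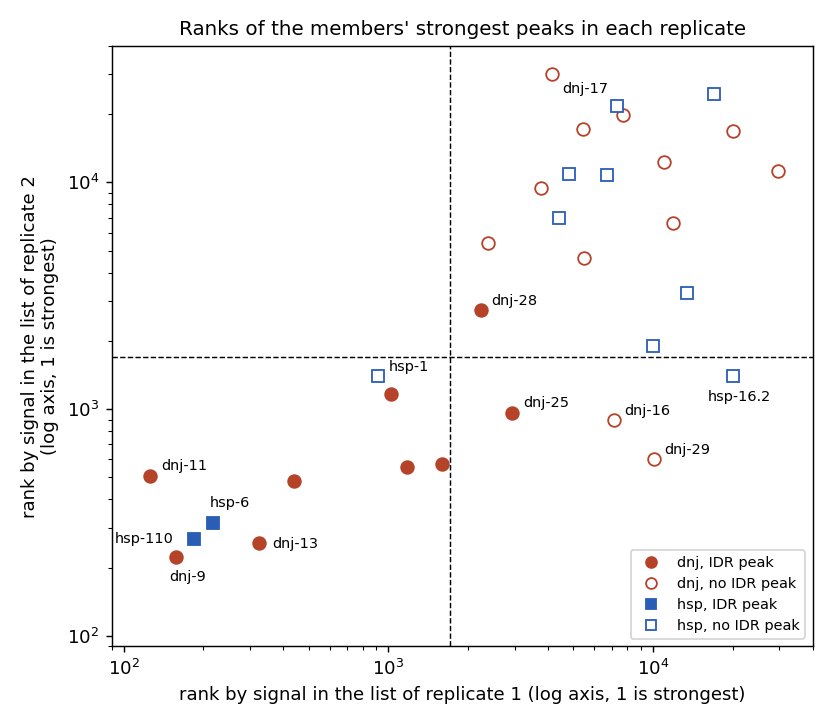
Rank by signal of each member's strongest peak within 500 bp in the list of replicate 1 (horizontal) and of replicate 2 (vertical), both on log axes, for the 32 members with a peak in both. Circles are dnj genes, squares hsp genes, filled symbols have an IDR peak, and dashed lines mark rank 1707. The 9 filled symbols at lower left are among the strongest peaks of both replicates, while dnj-25, dnj-29, dnj-16 and hsp-16.2 are within rank 1707 in replicate 2 alone.

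The letters at the summits were searched for motifs named for stress response and for promoters. At hsp-110 the motifs TTCNNGAA and GAANNTTC overlapped at the summit itself and shared their GAA, from 5 bp before the summit to 7 bp after it. Such a joined element, a search added after the windows were seen, was in 10 of 1684 windows of nuclear IDR peaks (0.594%) and at no other of the 11 members. GAANNTTC was in 2 of 11 windows of members, at hsp-110 and dnj-19, and in 5.34% of all nuclear IDR windows. TTCNNGAA was in 2 of 11, at hsp-110 and dnj-28, and in 3.09%. CCAAT was in 2 of 11, at dnj-13 and hsp-6, and in 15.8%, and GAGA was in 7 of 11 and in 68.3%. CACGTG and TGACGT were in none of the 11 windows, and in 3.15% and 4.04% of all. A match is a description of the letters, not of a bound site.

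The stretch between the divergent starts of hsp-16.2 and hsp-16.41 is shown for contrast, since it holds the same joined element in capitals and no IDR peak. A further TTCNNGAA stands at its right end. It is given in ce11, 5′ to 3′, over the 220 bp between the annotated starts, and holds no coding exon.
hsp-16.2 to hsp-16.41 (chrV:1804958-1805177, plus strand): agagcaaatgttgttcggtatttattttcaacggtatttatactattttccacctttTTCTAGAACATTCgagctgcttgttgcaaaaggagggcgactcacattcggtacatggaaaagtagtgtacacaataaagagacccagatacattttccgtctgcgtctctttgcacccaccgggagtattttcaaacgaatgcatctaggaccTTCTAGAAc

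Over promoters, taken as the 250 bp before and 50 bp after a start, the joined element was in 11 of the 51 members (21.6%) and in 1.97% of all protein-coding genes. The 11 were hsp-1, hsp-70, hsp-90, hsp-110, dnj-12 and the 6 hsp-16 genes, whose promoters overlap in part between divergent pairs. Of these 11 genes, hsp-110 and dnj-12 had an IDR peak, where 11 of all 51 members and 6.72% of all protein-coding genes had one. The share with an IDR peak over all genes that hold this or another motif was not counted. Among the 11 are hsp-16.1, hsp-16.11, hsp-16.48 and hsp-16.49, whose sequence near the start is repeated elsewhere. GAANNTTC alone, which the joined element contains, was in 20 of 51 member promoters (39.2%, against 18.5% of all genes), and TTCNNGAA in 15 (29.4%, against 18.9%). CCAAT was in 21 (41.2%, against 45.5%), CACGTG in 4 (7.84%, against 5.82%), TGACGT in 5 (9.80%, against 10.3%) and GAGA in 46 (90.2%, against 90.6%). TGACGT was in the promoters of dnj-20, dnj-28, dnj-29, hsp-3 and hsp-4, of which dnj-28 had an IDR peak.

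Many other genes of the chaperone network had an IDR peak. The genes listed here were chosen with earlier results of these data known, so their share describes this list alone. The list of 38 held co-chaperones of HSP70 and HSP90, the subunits of the chaperonin CCT and of prefoldin, and regulators and proteases of the stress responses. Of the 38 genes 20 had an IDR peak (52.6%), beside 11 of 51 members and 6.72% of all protein-coding genes. Because of how the list was chosen, no interval is given and the share does not measure an excess. The cct genes had 6 of 8, with signals of 93.0 at cct-8, 79.8 at cct-5, 79.1 at cct-1, 58.1 at cct-6, 55.0 at cct-7 and 40.5 at cct-4. All 6 of these peaks, and 11 of the 20 at the listed genes, were shared with a divergent coding neighbour, whose start was nearer to the summit at 4 of the 6 and 8 of the 20. Of the prefoldin genes pfd-1 (66.4) and pfd-6 (43.9) had a peak, 2 of 6. Partners of HSP70 with a peak were bag-1 (99.6) and hip-1 (69.8), whose products regulate HSP70. Partners of HSP90 with a peak were ahsa-1 (80.0), which encodes an activator, and sti-1 (45.3) and fkb-6 (41.8), whose products bind HSP90. The listed co-chaperone genes unc-23, cdc-37, chn-1, daf-41 and unc-45 had no IDR peak, and cdc-37 had no pooled-list peak either. Further peaks were at the HSP70-like stc-1 (38.3), the small heat shock protein gene sip-1 (51.1), which the name rule left out, and the endoplasmic reticulum HSP90 gene enpl-1 (42.8).

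Regulators of the unfolded protein response of the endoplasmic reticulum also had peaks, with signals of 59.6 at ire-1, 47.1 at atf-6 and 45.7 at xbp-1, while pek-1 had a pooled signal of 27.9 only. For mitochondria ubl-5 had a peak (73.8), and atfs-1 and dve-1 had pooled signals of 12.9 and 14.6 only. The mitochondrial protease genes had no IDR peak, with a pooled signal of 18.8 at clpp-1 and no pooled-list peak at lonp-1. The heat shock regulators hsf-1 and hsb-1 had pooled signals of 12.1 and 32.0 and no IDR peak.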

How the data were processed

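Per the text deposited with the samples, the authors derived a list of peaks and background regions from the alignments and a control for each replicate and for both pooled, and the IDR peaks from those 3 lists. The signal of each peak and the offset of its summit are the authors' deposited values. No aligner, peak caller, IDR threshold or kind of control is given in the sources used here. The 4 lists in ce11 were used, and those in ce10 were not used here. Genes came from Ensembl release 115 on WBcel235, the same build as ce11, and symbols of duplicated names, products and genome letters came from RefSeq. Worm gene starts are often trans-splice sites. Coordinates count from 1.

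For each gene and list the strongest peak with a summit within 500 bp of the gene start was taken. Assignment and motif search were checked on simulated data. Counts, ranks and intervals were computed with Python 3.11.15, NumPy 2.4.6 and SciPy 1.17.1. The members and lists were chosen with earlier results of these data known. Every member with an IDR peak was named with values, as were the 5 others of highest pooled signal, each HSP gene outside the small family, and partners and neighbours at an IDR peak. Values of further genes, the DNAJ roles and the joined motif were chosen after they were seen. Alternatives changed the reach, list, gene start, threshold or genes counted.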

Additional observations from a re-analysis of the deposited data

How the results depend on the processing

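The members with an IDR peak numbered 11 at 500 bp, 6 within 250 bp, 5 when a peak went to its nearest start alone, 3 when the called peak had to cover the start and 37 with any pooled-list peak; the strongest peaks of single replicates gave 10 to 14. For dnj genes the main count was 9 and these settings gave 5, 5, 3 and 25, with 7 to 10 from single replicates. For hsp genes it was 2, against 1, 0, 0 and 12, with 5 within 1000 bp and 3 to 4 from single replicates. Cytosolic chaperones had 1, but 2 within 1000 bp, 2 from any annotated transcript start, 2 from each replicate alone, 3 in the pooled list, 0 by nearest start and 0 by cover. Mitochondrial chaperones had 1, but 0 within 250 bp, 0 by nearest start, 0 by cover, 2 within 1000 bp and 2 in the pooled list. The endoplasmic reticulum HSP70 genes had 0, and 2 in the pooled list. Small heat shock protein genes had 0, but 1 within 1000 bp, 0 to 1 from single replicates, 4 in the pooled list and 1 with the RefSeq names added, an alternative chosen after the data were seen. All protein-coding genes had 1342, but 841 within 250 bp, 720 above the median signal, 551 by cover and 7433 in the pooled list. By construction a narrower reach counts fewer genes and a wider one more; other causes were not tested. In each of the settings of reach, nearest start and cover the members' share stayed above that of all genes, with 5.88% against 2.76% by cover. These shares rest on few members, 5 by nearest start and 3 by cover. No interval was computed for them, so they do not show an excess beyond counting error. Without a stated depth, a missing peak shows only that none was listed. No paired analysis was possible because there was 1 group.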

Other observations

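RefSeq gives hsp-16 symbols to 2 further genes that Ensembl leaves without an hsp name, so they were not among the members. F08H9.3, called hsp-16.20 in RefSeq, had an IDR peak with a signal of 63.3 and rank 541, whose summit was 41 bp upstream of the gene. The signal there was 41.9 in replicate 1 (rank 462) and 17.7 in replicate 2 (rank 1512). The summit lay within 250 bp of the snRNA gene F08H9.10, and the gene was 8.97 kb from F23B12.7, the tagged gene itself; the part of either in the peak was not tested. F08H9.4, called hsp-16.21, was 10.5 kb from F23B12.7 and had no IDR peak, with a pooled signal of 9.97.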
